A study of Mus musculus with 18 samples.

Results

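The chaperone genes were taken as every gene whose symbol begins with Hspa, Hspb, Hspd, Hspe, Hsph, Hsp90, Dnaja, Dnajb or Dnajc, or is Cct followed by a number. The arrays named 81 such genes, on 97 probes, among 18982 genes with a symbol. By family they were 27 Dnajc, 13 Dnajb, 13 Hspa, 9 Hspb, 9 Cct, 4 Dnaja and 3 Hsp90 genes, Hspd1 with Hspe1, and Hsph1. The rule works on symbols alone, so it also takes in Hspbap1 and Hspbp1, which encode proteins that bind a chaperone. Of the 81 genes, 71 had a probe on all arrays, 9 had one on the larger platform alone, and Hspa8 was covered by different probes on different arrays.

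Chaperones help other proteins reach and keep their folded shape. Hsp70 proteins (the Hspa genes) bind short exposed stretches of unfolded protein in cycles driven by ATP, J-domain proteins (the Dnaj genes) deliver clients to them, Hsp90 proteins act on clients that are nearly folded, and small heat shock proteins (Hspb) hold unfolding proteins without ATP. Chaperonins fold proteins inside a closed chamber: the ring built from the Cct subunits serves the cytosol, with actin and tubulin among its clients, and Hspd1 with its lid Hspe1 serves mitochondria.

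RNA was measured on single-colour oligonucleotide arrays from 10 samples on 18 arrays. Mouse embryonic stem cells (ESC) of the MES3 line, derived from a C57BLxCBA blastocyst, were grown with LIF on inactivated embryonic fibroblasts, the feeder cells. Embryoid bodies (EB), aggregates in which ESC begin to differentiate, were made by cutting out colony pieces and keeping them on low-adhesion plates without LIF or mercaptoethanol, and were taken at day 3 or day 7. Every ESC and EB sample came from this 1 line, and no genotype or drug set these groups apart. LIF and mercaptoethanol in the medium, and the feeder cells, did differ between ESC and EB. The adult group is labelled only as adult tissue cells; organ, strain, sex, age and number of animals are not given. The UniSet Mouse 20K I platform held 1 ESC, 2 samples of each EB stage (2 arrays a sample) and 2 adult samples (1 array each), and the Mouse Whole Genome platform held 1 ESC, 1 3-day EB and 1 7-day EB sample (2 arrays each). All levels below are log2 normalized intensities in arbitrary units. They were normalized within a platform, so a level is compared only within a platform and within a probe. Nothing says that replicates were separate cultures or animals, so p-values measure only the spread between these samples.

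The labels were checked against marker lists. On UniSet, summed intensity over the 12 pluripotency markers with a probe was 5938 in ESC, 5533 to 7741 in 3-day EB, 5545 to 9559 in 7-day EB and 698 to 746.4 in adult tissue, with the ESC sum inside the range of both EB stages. Feeder fibroblast markers summed to 6672 in ESC against 2019 to 2708 and 1847 to 3475 in 3-day and 7-day EB. Visceral endoderm markers summed to 128.1 in ESC and to 880.5 to 1639 in 7-day EB. In adult tissue 9 of 10 markers of male germ cells were above background in both samples, with sums of 9916 to 15690, against 187.6 to 245.8 over the ESC and EB samples. All 7 liver markers were also above background there. So were 6 of 9 brain markers, 6 of 11 striated muscle markers and 16 of 19 feeder fibroblast markers, the last with sums of 5958 to 6421. The share of probes above background was 27.8% to 36.4% on the ESC and EB arrays of UniSet and 52.9% to 57.9% on the adult arrays. In the file headers the adult arrays carry an analysis date that no other array has. The adult group and that date cannot be told apart. In bulk RNA, fewer cells of a type and less RNA per cell cannot be told apart either.

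Promoters are shown first for members picked for their opposite calls or for a motif. They are from RefSeq (GRCm38.p6), read 5′ to 3′ on the gene's strand and ending at the base before the transcription start. RefSeq windows of 250 bases before to 50 after a start were found for 66 of the 81 genes. Capitals in the first sequence mark a heat shock element, the binding motif of heat shock factor, and in the others the endoplasmic reticulum stress element, through which genes of the unfolded protein response are switched on. The first is the stretch between the facing starts of Hspd1 and Hspe1 (chr1:55087933-55088147, plus strand), shown because these neighbours were called in opposite directions against adult tissue. RefSeq also gives Hspd1 a further start on the far side of the Hspe1 start. The other 3 belong to Hspa5 (chr2:34771840-34772089, plus strand), Hsp90b1 (chr10:86705445-86705694, minus strand) and Dnajc3 (chr14:118937682-118937931, plus strand), the members that held the stress element.
Hspe1: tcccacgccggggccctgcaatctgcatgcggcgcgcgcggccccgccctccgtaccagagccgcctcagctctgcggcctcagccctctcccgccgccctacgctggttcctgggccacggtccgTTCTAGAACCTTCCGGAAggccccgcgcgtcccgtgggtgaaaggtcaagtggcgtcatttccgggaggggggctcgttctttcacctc
Hspa5: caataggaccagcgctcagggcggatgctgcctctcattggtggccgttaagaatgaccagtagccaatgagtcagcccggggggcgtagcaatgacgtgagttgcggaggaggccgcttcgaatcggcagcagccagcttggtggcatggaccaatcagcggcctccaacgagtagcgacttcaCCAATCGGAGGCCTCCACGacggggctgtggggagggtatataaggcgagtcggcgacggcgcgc
Hsp90b1: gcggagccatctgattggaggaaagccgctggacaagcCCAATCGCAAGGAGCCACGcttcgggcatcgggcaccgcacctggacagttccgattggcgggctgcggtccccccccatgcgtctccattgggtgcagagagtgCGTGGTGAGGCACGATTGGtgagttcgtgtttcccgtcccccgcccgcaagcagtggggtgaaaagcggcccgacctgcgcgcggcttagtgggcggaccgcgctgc
Dnajc3: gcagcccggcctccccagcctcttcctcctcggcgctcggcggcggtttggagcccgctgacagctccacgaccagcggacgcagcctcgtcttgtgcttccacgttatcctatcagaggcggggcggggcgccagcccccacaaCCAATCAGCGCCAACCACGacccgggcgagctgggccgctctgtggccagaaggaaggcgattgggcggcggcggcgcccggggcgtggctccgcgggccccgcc

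The motif searches covered both strands. The heat shock element core GAANNTTC lay in windows of 16 of the 66 matched members, or 21.2% of their 85 windows against 7.86% of all 32851 windows in the table. Its 3-unit form (the core followed or preceded by a further unit, GAA or TTC in turn, after 2 bases) lay in 7.06% of member windows and 0.603% of all windows, and the members were Dnajb6, Hspd1, Hspe1 and Hsph1. In the sequence between Hspd1 and Hspe1, overlapping 3-unit matches began 89 and 84 bases before the Hspe1 start. The stress element (CCAAT and CCACG with 9 bases between) lay in 3.53% of member windows and 0.119% of all windows. It began 65 bases before the start of Hspa5, 105 before that of Dnajc3, and 212 and 107 before that of Hsp90b1, whose 107 match is on the other strand. Windows of Dnajb6 overlap, as do those of Hsph1 and those of Hspd1 with Hspe1, so the same 3-unit element was counted more than once. Paralogous members also share sequence, so these shares describe the windows and were not tested.

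The first question was how chaperone genes change as ESC become EB. Few passed the test: of the 43 members that were above background on every array of at least 1 group and so entered the fit, 0 passed at 3 days and 1 passed at 7 days. That gene was Hspe1, the lid of the mitochondrial chaperonin, which fell. In limma, with Benjamini-Hochberg adjustment over all 6303 genes tested, 3.01% of all genes passed at 3 days (0.73% higher and 2.28% lower) and 5.17% at 7 days (1.81% higher and 3.36% lower). The members' median difference from ESC was 0.02 at both times, beside 0.06 and 0.04 for all genes tested. At an unadjusted p under 0.05, 2 members were higher and 5 lower at 3 days, beside 19% of all genes (10% higher and 9.01% lower), and 7 were higher and 3 lower at 7 days, beside 22.5% (11.5% higher and 11% lower). Between 7-day and 3-day EB limma called 0 members and 0% of all genes. In that comparison 4 members were higher and 7 lower at an unadjusted p under 0.05, beside 14.7% of all genes (7% higher and 7.74% lower). Other tools were not run.

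**Figure D1:**
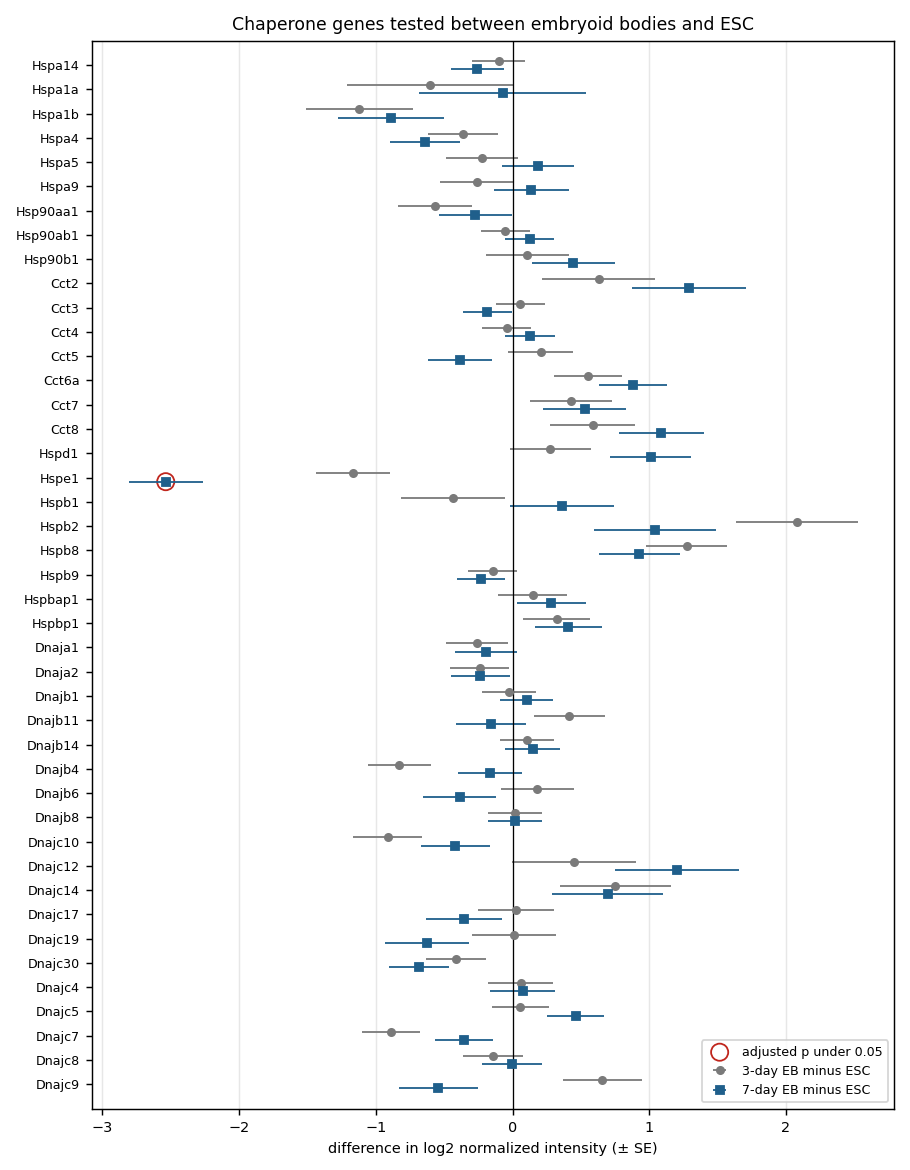
Difference in log2 normalized intensity of 3-day EB (circles) and 7-day EB (squares) from ESC for the 43 chaperone genes tested, ordered by family, with SE bars from the limma fit over 8 samples. Only Hspe1 at 7 days is ringed as past the adjusted threshold, at -2.54, and most other members lie near 0.

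Hspe1 read 8.48 in ESC on UniSet, 7.05 and 7.76 in 3-day EB, and 6.13 and 6.30 in 7-day EB. The Whole Genome arrays gave 9.84 in ESC, 8.64 in 3-day EB and 6.90 in 7-day EB. On both platforms every 7-day sample lay below every 3-day sample, and every 3-day sample below ESC. The Whole Genome 7-day arrays had another analysis date than its ESC and 3-day arrays, so stage and date cannot be told apart there. At 7 days the difference from ESC was -2.54 ± 0.27 (log2, SE; 2 ESC and 3 EB samples; limma adjusted p = 0.0045), with -2.27 on UniSet and -2.94 on Whole Genome. At 3 days it was -1.16 ± 0.27 (adjusted p = 0.069 in limma), which did not pass. The fall rests on both ESC samples for its call: limma's adjusted p was 0.054 without ESC replicate 1 (-2.75), 0.062 without ESC replicate 2 (-2.36) and 0.15 on UniSet alone. Over all 17 alternatives the difference stayed between -2.75 and -2.04. Of 17 feeder fibroblast markers tested, 9 fell in the same comparison, and the part of feeder cells in the Hspe1 result was not tested. RefSeq names 7 processed copies of Hspe1 and 5 of Hspd1, so signal from copies cannot be separated from the gene itself.

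Hspd1 is the chamber of the same chaperonin. It read 8.49 in ESC, 8.52 and 9.34 in 3-day EB, and 9.93 and 9.77 in 7-day EB on UniSet. On Whole Genome it read 12.32, 12.47 and 12.82 in the same order. Its 7-day difference from ESC was 1.01 ± 0.30 (limma adjusted p = 0.10), so the higher EB values did not pass. Hspa9, the mitochondrial Hsp70, read 9.69 in ESC, 9.11 and 9.81 in 3-day EB, and 9.55 and 9.69 in 7-day EB on UniSet, with overlapping groups.

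**Figure D2:**
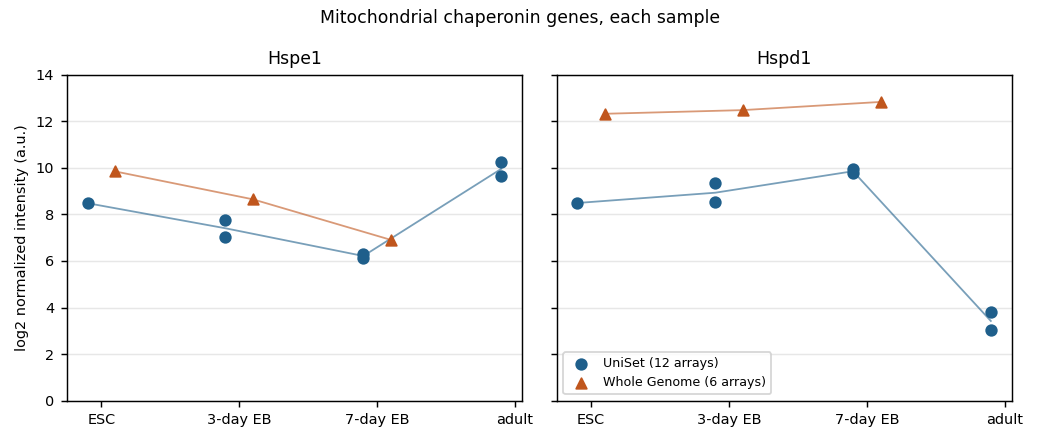
Log2 normalized intensity of Hspe1 (left) and Hspd1 (right) in each sample, circles for UniSet and triangles for Whole Genome, with lines through the group means of each platform. Hspe1 steps down from ESC to 7-day EB on both platforms, and on UniSet it is highest in adult tissue at 9.65 and 10.25, where Hspd1 is lowest at 3.05 and 3.80.

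Several other members came near the threshold between ESC and EB. Hspb2, a small heat shock protein of striated muscle, read 4.54 in ESC, 6.65 and 5.30 in 3-day EB, and 5.30 and 5.12 in 7-day EB on UniSet, and 7.47, 10.43 and 8.84 on Whole Genome. Every EB value lay above ESC, and the 3-day difference was 2.08 ± 0.45 (adjusted p = 0.052 in limma). Hspb8, a small heat shock protein that works with BAG3 in clearing misfolded proteins, read 6.50 in ESC and 6.80 to 7.22 over the 4 EB samples on UniSet, and 8.44, 10.43 and 9.92 on Whole Genome. Its 3-day difference was 1.27 ± 0.30 (adjusted p = 0.0685 in limma). Dnajc7, a co-chaperone that binds both Hsp70 and Hsp90, read 9.66 in ESC, 8.76 and 8.93 in 3-day EB and 9.28 and 9.08 in 7-day EB on UniSet, and its 3-day difference was -0.89 ± 0.21 (adjusted p = 0.073 in limma). Striated muscle markers summed to 129.2 in ESC and to 207.5 to 291.5 over the EB samples on UniSet, and on Whole Genome to 911.4 in ESC, 4483 in 3-day EB and 2569 in 7-day EB. Of 11 such markers on UniSet, 1 was above background in ESC, 2 in both 3-day EB samples and 3 in both 7-day EB samples, and Ckm, Myh4, Myh6 and Myl1 were below it in every ESC and EB sample. Acta1 read 2.12 in ESC and 6.58 and 3.72 in 3-day EB on UniSet, and 5.23 and 10.93 on Whole Genome. Of the 3 markers tested, Tnni2 rose at 3 days (1.94 ± 0.22, limma adjusted p = 0.0063), and Des (2.22 ± 0.31) and Tnni2 (1.02 ± 0.22) rose at 7 days (limma adjusted p = 0.0095 and 0.042). The part of muscle markers in the Hspb2 values was not tested. Of the 7 members known from striated muscle 3 were tested, and Hspb1 among them was lower at 3 days, at -0.43, without passing. On Whole Genome, Hspb6, Hspb7 and Dnajb5 read 8.63, 5.34 and 6.44 in ESC and less in 3-day EB, at 6.88, 3.01 (below background) and 5.79. Hspb3 read more there, at 4.64 against 3.81 in ESC, which was below background. Hspe1 and Hspb2 at 3 days passed under median normalization, with an adjusted p of 0.049 and 0.048 in limma.

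The inducible Hsp70 genes, which heat and other stress switch on, showed no call. Hspa1b read 7.77 in ESC, 6.53 and 7.69 in 3-day EB, and 6.95 and 7.49 in 7-day EB on UniSet, and 10.05, 8.32 and 8.79 on Whole Genome. All EB values were below ESC, and the 3-day difference of -1.12 ± 0.39 did not pass (limma adjusted p = 0.18). It passed without 3-day EB replicate 2 (-1.48, limma adjusted p = 0.035). Hspa1a ranged from 3.92 to 5.90 over the EB samples on UniSet around 4.86 in ESC, and on Whole Genome it read 8.60 in ESC, 7.17 in 3-day EB and 7.90 in 7-day EB. Hspa1a and Hspa1b are nearly identical, so their probes may each read both genes. Of the 9 heat-inducible members tested, Hspe1 alone passed at 7 days. Hsph1, an Hsp110 that restarts the Hsp70 cycle, read 4.38 in ESC and 3.61 to 4.57 in EB on UniSet and did not enter the fit.

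Cct subunits showed no call between ESC and EB either. At 7 days, 7 tested subunits had a median difference of 0.53 from ESC. Cct8 read 8.18 in ESC, 8.24 and 8.92 in 3-day EB and 9.45 and 9.44 in 7-day EB on UniSet, and its 7-day difference was 1.09 ± 0.31 (adjusted p = 0.091 in limma). Cct6a differed by 0.88 ± 0.25 (adjusted p = 0.089 in limma) and Cct2 by 1.29 ± 0.42 (adjusted p = 0.12 in limma). No Hsp90 gene passed between these groups. Hsp90ab1, the constitutive cytosolic form, ranged from 11.28 to 11.47 over the 5 UniSet samples of ESC and EB, and Hsp90aa1, the inducible form, from 10.70 to 11.63.

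Partner genes outside the families came from lists of co-chaperones and stress regulators. Of 36 co-chaperones and other folding factors tested, 0 rose and 1 fell at each time, beside 3.01% of all genes called at 3 days and 5.17% at 7 days. It was Lonp1, a mitochondrial protease, at -1.05 ± 0.20 at 3 days and -1.14 ± 0.20 at 7 days (limma adjusted p = 0.036 and 0.021). Of 18 genes of the unfolded protein response, 1 fell at each time: Atf4, a transcription factor of the stress response, at -1.46 ± 0.27 and -1.32 ± 0.27 (limma adjusted p = 0.033 and 0.035). Hsbp1, which encodes a small protein that binds heat shock factor, rose by 1.04 ± 0.19 at 7 days (limma adjusted p = 0.024), and it was the 1 tested gene of its list. Alternatives were followed gene by gene for members alone. Whether the calls of Lonp1, Atf4 and Hsbp1, or those of Tnni2 and Des above, stay under them was not tested.

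The second question was how ESC and EB differ from adult tissue, on UniSet alone. In ESC 6 of 8 tested Cct genes, all 3 Hsp90 genes, and Hspa4, Hspa5, Hspa9 and Hspa14 were higher. Dnajb3, Dnajb13 and Hspb9, known from testis, were lower. In all, 34 of 52 tested members passed in limma, 21 higher and 13 lower in ESC, beside 51.8% of the 10084 genes tested (25.2% higher and 26.6% lower). The member median was 0.66 and that of all genes 0.04. Of the 52, 39 were above background on every array both of adult tissue and of an ESC or EB group, and 18 of these were higher and 5 lower. Another 10, among them Dnajb3, Dnajb13, Dnaja4 and Hspa13, entered through adult tissue alone (8 lower, 0 higher). Cct2, Cct8 and Dnajc10 entered through ESC or EB alone (3 higher). The filter favoured the direction of all of these. In 3-day EB 41 passed (26 higher and 15 lower, beside 61.9%, 30.5% and 31.5% of all genes), and in 7-day EB 37 (24 higher and 13 lower, beside 61.6%, 29.4% and 32.2%). These 3 comparisons share the adult samples. With 1 ESC sample on this platform, the fit assumes that it varies like the other groups. Normalizing to the array median instead of by quantiles moved the median of all genes to -0.36, -0.48 and -0.49, and split the calls as 17 higher and 16 lower in ESC, 17 and 18 in 3-day EB, and 17 and 19 in 7-day EB.

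**Figure D3:**
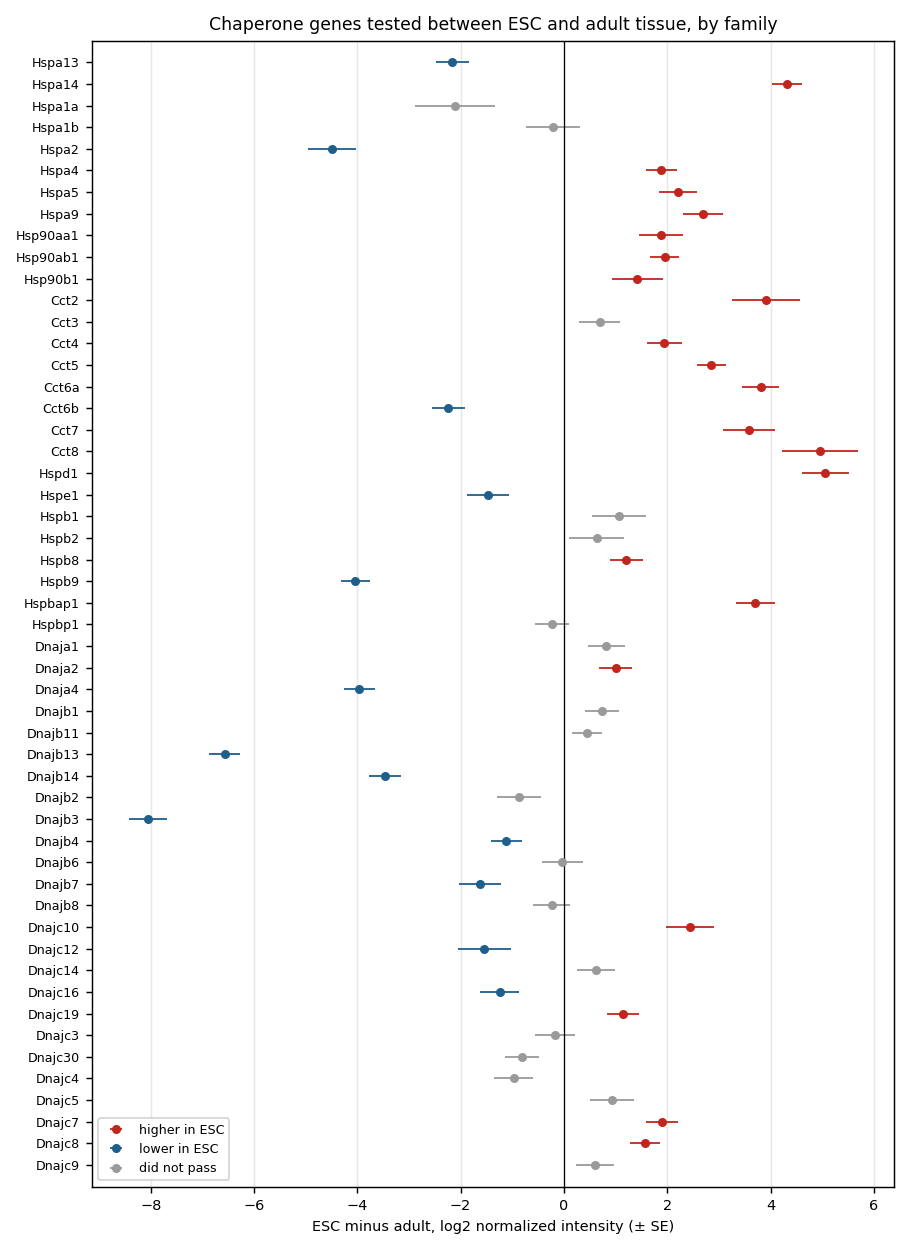
ESC minus adult difference in log2 normalized intensity, with SE from limma, for the 52 chaperone genes tested on UniSet, by family, coloured by direction where the adjusted p was under 0.05. Cct and Hsp90 genes lie mostly to the right and Dnajb3 and Dnajb13 farthest to the left, at -8.06 and -6.57.

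Among the Cct genes, Cct2, Cct4, Cct5, Cct6a, Cct7 and Cct8 were higher in ESC and in both EB stages, and the median over the 8 tested genes was 3.22 in ESC. Cct5 read 9.70 in ESC, 9.63 and 9.70 in 3-day EB, 9.40 and 9.30 in 7-day EB, and 6.89 and 6.80 in adult tissue. Its ESC difference was 2.85 ± 0.28 (limma adjusted p = 0.00027), and every ESC and EB value lay above both adult values. Cct6a, with 7.08 in ESC and 3.17 and 3.36 in adult tissue, differed by 3.81 ± 0.36 (limma adjusted p = 0.00023). Those adult values are dim, and the difference ranged from 1.63 to 3.91 over the alternatives. Cct8 differed by 4.95 ± 0.74 and Cct2 by 3.91 ± 0.66 (limma adjusted p = 0.0015 and 0.0025); each was above background on 1 of the 2 adult arrays, so the size rests on a dim value. With an offset of 50 in place of the floor the differences were 2.47 and 1.33, and both passed. These 6 calls and that of Cct6b stayed under every alternative that could test the gene, in each of the 3 comparisons. Cct2 and Cct8 entered the fit through ESC or EB alone, and Cct6b through adult tissue alone, so the filter favoured their direction. Cct3 did not pass, at 10.41 in ESC against 10.17 and 9.27, a difference of 0.69 ± 0.40. The partner subunit Tcp1, outside the symbol rule, read 7.58 in ESC and 6.69 and 5.96 in adult tissue (1.25, limma adjusted p = 0.025).

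Cct6b, the form of the sixth subunit known from testis, went the other way. It read 3.55 in ESC, 4.23 and 3.83 in 3-day EB, 3.52 and 3.74 in 7-day EB and 5.69 and 5.90 in adult tissue. On Whole Genome it read 6.63 in ESC, 6.59 in 3-day EB and 6.33 in 7-day EB, above background on every array. On UniSet it was above background on no ESC or EB array, and was at least 2.35-fold lower in ESC (limma adjusted p = 0.0013). Such bounds set the dim group at the lowest signal among probes above background, or at the probe's own signal where that is higher. Of the 7 tested members known from testis, Cct6b, Dnajb3, Dnajb7, Dnajb13 and Hspa2 entered the fit through adult tissue alone. They are therefore given as values and their number supports nothing. Dnajb3, Dnajb7 and Hspa2 too were above background on every Whole Genome array. Dnajb3, a J-domain protein, read 2.86 in ESC and 10.97 and 10.86 in adult tissue and was at least 82.1-fold lower (limma adjusted p = 2.2e-05). Dnajb13, part of the radial spokes of sperm flagella, was at least 13.8-fold lower, and Hspa2, the Hsp70 of meiotic and later germ cells, at least 6.46-fold lower (limma adjusted p = 2.2e-05 and 0.000323). The Dnajb13 bound is for its brighter probe. Its other probe showed a smaller gap, at 2.69 in ESC, below background, against 4.92 and 4.83 in adult tissue. Hspb9, above background throughout, read 5.68 in ESC and 9.72 in both adult samples (-4.04 ± 0.28, limma adjusted p = 6.7e-05). Dnajb8 did not pass, at 4.98 in ESC against 5.51 and 4.92. The male germ cell markers listed above move with these members, Prm2 and Tnp1 among them, which were below background in all UniSet ESC and EB samples though above it on Whole Genome; their part in the result was not tested.

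**Figure D4:**
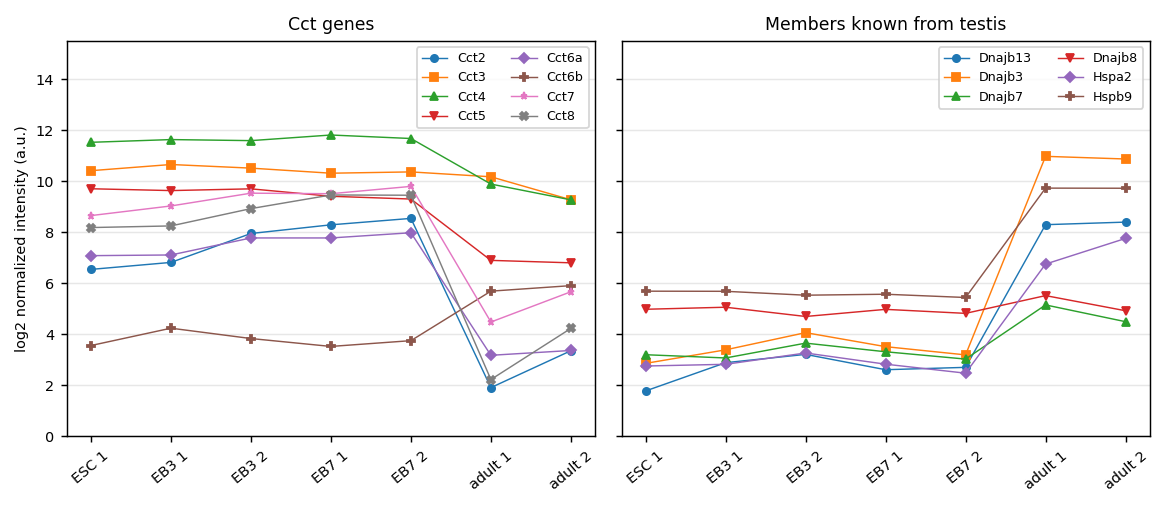
Log2 normalized intensity in the 7 UniSet samples of the 8 tested Cct genes (left) and of the tested members known from testis other than Cct6b (right); lines join the values of 1 gene. All Cct genes but Cct6b lie lower in both adult samples than in ESC and EB (Cct3 did not pass the test), Cct6b is higher there at 5.69 and 5.90, and on the right all but Dnajb8 are higher in both adult samples.

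Of the Hsp90 genes, Hsp90ab1 read 11.29 in ESC and 9.30 and 9.39 in adult tissue, a difference of 1.95 ± 0.28 (limma adjusted p = 0.0013). Hsp90aa1 differed by 1.87 ± 0.43 and Hsp90b1, the form of the endoplasmic reticulum, by 1.42 ± 0.50 (limma adjusted p = 0.0093 and 0.048). The Hsp90b1 call was lost under 7 of 12 alternatives, and that of Hsp90aa1 without adult replicate 2, while every difference stayed positive. Hspa5, the Hsp70 of the same compartment (BiP), read 8.49 in ESC, 8.29 and 8.66 in 3-day EB, 9.03 and 8.39 in 7-day EB, and 6.29 and 6.27 in adult tissue. It differed by 2.21 ± 0.36 (limma adjusted p = 0.0023). Dnajc3, which carries the stress element too, was not above background in ESC at 4.47 and read 4.89 and 4.41 in adult tissue, with no call. Dnajc10, a reductase that aids disposal of misfolded proteins there, was higher by 2.44 ± 0.46 (limma adjusted p = 0.0042) on its brighter probe, which was above background on 1 of the 2 adult arrays; with an offset of 50 in place of the floor it was 0.76 and passed. Dnajc10 entered the fit through ESC or EB alone, and its other probe was below background on all UniSet arrays. Hspa13, also of this compartment, entered through adult tissue alone and was at least 2.05-fold lower in ESC (limma adjusted p = 0.00158). On Whole Genome the same probe was above background in ESC, at 6.64.

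The cytosolic Hspa4, an Hsp110-type exchange factor, read 10.79 in ESC and 8.92 and 8.89 in adult tissue (1.88 ± 0.30, limma adjusted p = 0.0020). Hspa14, which works at the ribosome, had the largest difference of its family among tested members that were higher in ESC, with 8.32 in ESC against 4.06 and 3.95 (4.31 ± 0.29, limma adjusted p = 5.8e-05). Its adult values are dim, and the difference ranged from 2.48 to 4.37 over the alternatives. Hspa1a and Hspa1b did not pass in ESC, at -2.11 ± 0.78 and -0.22 ± 0.53, while Hspa1a was lower in 3-day EB than in adult tissue, at -2.05 ± 0.64 (limma adjusted p = 0.025). That Hspa1a call was lost without 3-day EB replicate 1 (-1.06, limma adjusted p = 0.097), which was below background, and without adult replicate 1 or 2 (limma adjusted p = 0.12 and 0.14).

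Mitochondrial members again split. Hspd1 was higher in ESC by 5.06 ± 0.45 (limma adjusted p = 0.00019) and Hspa9 by 2.69 ± 0.38 (limma adjusted p = 0.0012), but Hspe1 was lower, at -1.47 ± 0.41 (limma adjusted p = 0.021). The size for Hspd1 rests on dim adult values of 3.05 and 3.80, and ranged from 2.74 to 5.44 over the alternatives. For Hspe1 the gap was wider in EB, at -2.55 ± 0.34 at 3 days and -3.74 ± 0.34 at 7 days (limma adjusted p = 0.000542 and 9.1e-05). The ESC call for Hspe1 was lost without adult replicate 2 (-1.17, limma adjusted p = 0.10). Dnajc19, an import motor protein of the inner membrane, was higher by 1.15 ± 0.31 (limma adjusted p = 0.019), but the call was lost under median normalization (0.57, limma adjusted p = 0.25), with the deposited value table (0.51, limma adjusted p = 0.35) and without adult replicate 1 (limma adjusted p = 0.065).

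Among J-domain genes, 5 of 10 tested Dnajb genes were lower in ESC and none higher, and 4 of 12 Dnajc genes were higher and 2 lower, shares near the 51.8% of all genes that passed. Dnajb3, Dnajb7, Dnajb13 and Dnajc16, all lower, entered through adult tissue alone, and Dnajc10, higher, through ESC or EB alone. Dnajb14, a membrane J-protein of the endoplasmic reticulum, read 5.54 in ESC, 5.40 to 5.80 in EB, and 9.03 and 8.97 in adult tissue (-3.46 ± 0.31, limma adjusted p = 0.00018). Dnaja4, which also entered through adult tissue alone, was at least 3.74-fold lower in ESC (limma adjusted p = 9.3e-05). On Whole Genome it was above background in ESC, at 5.51. The general Hsp70 partners Dnaja1 and Dnajb1 did not pass, at 0.82 ± 0.36 and 0.73 ± 0.33. Dnajc8, a protein found with the spliceosome, was higher by 1.57 ± 0.29, and Dnajc7 by 1.90 ± 0.31 (limma adjusted p = 0.0040 and 0.0023). With the deposited value table Dnajc8 was 0.73 and did not pass (limma adjusted p = 0.17). Of the small heat shock genes, Hspb8 was higher by 1.21 ± 0.33 (limma adjusted p = 0.018), while Hspb1 and Hspb2 did not pass. Hspbap1, taken in by its symbol and encoding a protein that binds Hspb1, was higher by 3.71 ± 0.37 (limma adjusted p = 0.00030). The Hspb8 call was lost under median normalization (0.73, limma adjusted p = 0.13), with the deposited value table (limma adjusted p = 0.12) and without adult replicate 1 (limma adjusted p = 0.059).

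Against adult tissue, of 35 co-chaperones and other folding factors tested, 20 were higher in ESC and 1, Clpb, lower, with a median of 1.17, beside 25.2% of all genes higher, 26.6% lower and a median of 0.04. Stip1, which bridges Hsp70 and Hsp90, was higher by 3.61 ± 0.39, Nudc, an Hsp90 co-chaperone, by 2.87 ± 0.29 and Vbp1, a prefoldin subunit that hands clients to the Cct ring, by 2.14 ± 0.29 (limma adjusted p = 0.000385, 0.000315 and 0.000954). Of 21 unfolded protein response genes 7 were higher and 1 lower, beside the same shares of all genes. P4hb, a disulfide isomerase, was higher by 3.02 ± 0.39 (limma adjusted p = 0.00085). The route through the filter and the alternatives were worked out for members alone. How far the filter or the quantile normalization shaped the counts of these 2 lists was not tested.

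The other members gave no test. Of the 71 genes on all arrays, 18 entered neither fit, and 11 of them were above background on no UniSet array, among them Hspa1l, Hspb3, Hspb7 and Dnajc6. Of the 9 genes on Whole Genome alone, 6 were above background on all its arrays. Hspb6, a small heat shock protein of muscle, read 8.63 in ESC, 6.88 in 3-day EB and 7.47 in 7-day EB, and Dnajc21, a ribosome assembly factor, 9.63, 10.27 and 10.28, each from 1 sample a group. On that platform 20.5% of member probes differed at least 2-fold between 3-day EB and ESC, beside 19.3% of all probes. At 7 days the shares were 24.4% and 22.3%, and there the 7-day and ESC arrays also differed in analysis date.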

How the data were processed

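Each array came with a scanner export of 1 raw intensity per spot, deposited by the authors; per the file headers the scanner software was version 4.1.0.29054. Raw values below 0 occur, so background had been subtracted. The deposited UniSet value table holds normalized intensities, which equalled the authors' normalized intensity column of the exports in 99.91% of matched rows on the ESC and EB arrays but in under 0.1% on the adult arrays, so it served as an alternative only.

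Spots marked masked, contaminated or irregular were set aside. Raw intensity was quantile-normalized within each platform, raised to the median negative control (3.42 on UniSet, 5.24 on Whole Genome), put on the log2 scale, and averaged over the arrays of a sample. Arrays whose titles agree up to the last number were read as 1 sample. Probes above background on every array of at least 1 group were kept, and the brightest stood for its gene; 15791 of 19758 shared probes had 1 symbol. Tests used lmFit and eBayes of limma 3.58.1 (R 4.3.3) on all genes, with Benjamini-Hochberg adjusted p under 0.05, with 8 samples and a platform term for ESC and EB and 7 samples for adult tissue. Precision is limited by how few arrays there are. The script was tested on simulated data. The members and gene lists were chosen with earlier results of these data known. Full values are given for members called between ESC and EB, the brightest and most different of each family, and a set of well-known members; of the other lists, the called genes with the smallest p. Alternatives changed the normalization, floor, filter, probe choice, values, platforms, scan batch (by the analysis date in the file headers) and pairing, and left out each replicate.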

Additional observations from a re-analysis of the deposited data

Results flagged for a closer look

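Signal appeared in data that no comparison could use. Hspa8, the constitutive cytosolic Hsp70, had a probe on the adult arrays alone, with raw intensities of 1954.57 and 1408.12, against negative controls near 3. Its other probe, on Whole Genome, was below background on every array, at 3.66, 3.46 and 3.79 in ESC, 3-day and 7-day EB on the log2 scale. The gene therefore has no measured difference here, and no measured level in ESC or EB. Dnajc5b, known from testis, read 8.0956 (log2) in adult replicate 1, against 3.15 in ESC and 1.81 to 2.43 in EB on UniSet; its spot in adult replicate 2 was set aside, and it was not tested. No group had enough samples for a test of single outlying samples.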

How the results depend on the processing

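Single genes were followed for members alone, and no called member changed sign under any alternative. Of the calls against adult tissue, 23 of 34 in ESC, 26 of 41 in 3-day EB and 29 of 37 in 7-day EB stayed under every alternative that could test the gene. Between 3-day EB and ESC, 2 members passed under median normalization in place of 0. Between 7-day EB and ESC, 0 passed on UniSet alone. Leaving out 1 replicate gave 0 to 2 members at 3 days (2, Hspa1b and Hspb2, without 3-day EB replicate 2), 0 to 1 at 7 days (0 without either ESC sample), 0 to 1 between the EB stages (1, Hspe1, without 7-day EB replicate 2), and 29 to 34, 33 to 41 and 33 to 39 against adult tissue in ESC, 3-day and 7-day EB. The deposited value table, which tested 44 members, gave 27 in 3-day EB against adult tissue. Counts over all genes moved more: leaving out 1 replicate gave 1 to 299 at 3 days, 24 to 472 at 7 days and 0 to 173 between EB stages. At 3 and 7 days, leaving out ESC replicate 1 gave 72 and 86 and ESC replicate 2 gave 1 and 24. Dropping EB of day 3 gave 60 and 264 (replicate 1) or 6 and 132 (replicate 3); dropping EB of day 7 gave 113 and 111 (replicate 1), 299 and 472 (replicate 2, with 173 between stages) or 112 and 86 (replicate 3). At 3 days 190 genes became 73 with a replicate block beside the platform, and at 7 days 326 became 157. Between EB stages 12 genes passed with the block in place of 0. The members called were 0, 1 and 0 with the replicate block. The replicate numbers are shared labels: over 2 pairs, deviations correlated at 0.319 across 6303 genes, which are not independent. Other counts of all genes were 109 and 179 at 3 and 7 days with an offset of 50, 74 and 137 without a filter, 48 and 95 with probes above background on every array, 0 and 1 on UniSet alone, 0 and 64 with the value table, and 120 and 86 with the scan batch as a term. Scan batch here means only the analysis date in the file headers. A term for it could not be fitted against adult tissue, and Whole Genome alone gives no test. Low signal limits the dim members: on UniSet ESC and EB arrays the median probe was 2.06 to 3.08 times the negative control.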
